A study of Mus musculus with 3 samples.

Results

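The 6 genes described here were Saa3, Lcn2, Prg4, Serpina3n, C3 and Hp, out of 32285 genes counted in single-cell RNA-seq of the mouse aorta. They were picked on measured values of these same data, as acute phase genes far higher in fibroblasts of the APOE2 or APOE4 mice, so their differences between genotypes in fibroblasts chose them and are given as a description. The mice carried the human APOE2, APOE3 or APOE4 gene in place of their own Apoe gene at its locus, so that no group kept mouse Apoe. All were males on the C57BL/6J background that received a Western diet (42% fat and 0.2% cholesterol) for 16 weeks from 12 weeks of age. Dissociated cells of the whole aorta, from the arch to the iliac bifurcation, were pooled by genotype. The APOE2 pool held 6 mice, the APOE3 pool 5 and the APOE4 pool 7, and a single droplet library was made of each. There was therefore 1 library per genotype, the barcodes do not give the mouse of origin, and a single mouse with high values cannot be told apart from a change in all mice of a pool. No difference between genotypes was tested.

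Acute phase genes are switched on by injury or infection, above all in liver, under the cytokines interleukin 6, interleukin 1 and tumor necrosis factor and the transcription factors STAT3, C/EBP and NF-kB. Several are also made outside the liver by stromal cells, epithelium and myeloid cells. Saa3 encodes an inducible serum amyloid A of tissues and macrophages. Lcn2 encodes lipocalin 2, which binds bacterial siderophores and is stored in neutrophil granules. Prg4 encodes lubricin, the mucin-like lubricant of joint surfaces. Serpina3n encodes a secreted serine protease inhibitor, C3 the central protein of the complement cascade, and Hp haptoglobin, which binds free hemoglobin.

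On GRCm38, Saa3 (ENSMUSG00000040026) lies on the minus strand at chr7:46711998-46715700 and Lcn2 (ENSMUSG00000026822) on the minus strand at chr2:32384633-32388252. Prg4 (ENSMUSG00000006014) lies on the minus strand at chr1:150449412-150466165 and Serpina3n (ENSMUSG00000021091) on the plus strand at chr12:104406729-104414329. C3 (ENSMUSG00000024164) lies on the minus strand at chr17:57203970-57228136 and Hp (ENSMUSG00000031722) on the minus strand at chr8:109575128-109579172. Saa3 and Serpina3n belong to clusters of closely related genes, so part of their reads could be lost or assigned to a relative.

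RefSeq promoter windows on GRCm38.p6 were found for 4 of the 6 genes: Saa3, Lcn2, Serpina3n and C3. The 250 bases before the start were searched on both strands for the letters TTNNGNAA (C/EBP-type), TTCNNNGAA (STAT-type) and for GGG and CC set 5 bases apart (NF-kB-type), because these are the factors named for acute phase induction. Of 32536 promoters of that length, 36.8% held the C/EBP-type letters, 7.04% the STAT-type letters and 46.0% the NF-kB-type letters. The Saa3 window held 4 C/EBP-type matches, the C3 window 3, the Serpina3n window 2 and the Lcn2 window 1. The NF-kB-type letters were matched 4 times in the Serpina3n window and 4 times in the C3 window, partly by overlapping matches on both strands, and 1 time in the Lcn2 window (GGACTACCCC, read on its other strand). They had no match in the Saa3 window, and the STAT-type letters had none in any of the 4. A match describes the letters only. The 3 windows below are printed 5′ to 3′ on the gene's strand with the matches in capitals, and only up to the first exon base of the gene in the GENCODE annotation. They are chr7:46715701-46715926 (minus strand) for Saa3, chr12:104406458-104406707 (plus strand) for Serpina3n and chr17:57228137-57228386 (minus strand) for C3. The Lcn2 window lay largely within an annotated exon and is not printed.
Saa3: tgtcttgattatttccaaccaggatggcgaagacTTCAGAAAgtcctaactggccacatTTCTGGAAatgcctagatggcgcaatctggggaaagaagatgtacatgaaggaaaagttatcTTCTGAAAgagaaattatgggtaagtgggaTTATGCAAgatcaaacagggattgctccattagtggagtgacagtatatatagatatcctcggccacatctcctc
Serpina3n: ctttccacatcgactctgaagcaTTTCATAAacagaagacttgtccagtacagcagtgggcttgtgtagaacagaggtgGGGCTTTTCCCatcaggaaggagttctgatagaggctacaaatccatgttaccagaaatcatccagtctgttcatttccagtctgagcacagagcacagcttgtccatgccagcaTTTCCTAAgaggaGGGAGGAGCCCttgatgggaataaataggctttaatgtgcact
C3: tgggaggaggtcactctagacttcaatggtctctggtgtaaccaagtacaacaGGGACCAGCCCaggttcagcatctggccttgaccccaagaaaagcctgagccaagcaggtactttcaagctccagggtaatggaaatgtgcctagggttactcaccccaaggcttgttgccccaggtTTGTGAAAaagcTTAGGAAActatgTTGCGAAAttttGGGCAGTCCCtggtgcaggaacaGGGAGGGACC

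After cells with under 200 genes or with at least 20% mitochondrial transcripts were left out, 11772 APOE2, 6737 APOE3 and 8248 APOE4 cells remained, with medians of 12047, 17618 and 13522 unique molecular identifiers (UMIs) per cell. The libraries shared 14 to 27 cell barcodes pairwise. The APOE2 library stood apart by 118 droplets with over 5 times its median UMIs, against 0 in APOE3 and 2 in APOE4, and none of these was among the fibroblasts. Cells were clustered without the 6 genes, and clusters were named from markers. Fibroblast-like cells numbered 1125 in APOE2, 620 in APOE3 and 940 in APOE4 and came from 2 clusters, led by Serpinf1, Inmt and Fmod (the Inmt cluster, C4 in the plots) and by Pi16, Clec3b and Ly6a (the Pi16 cluster, C12 in the plots). All 12 fibroblast markers were detected in each library, at a summed level of 30139 CPM (UMIs per 1000000 UMIs of the class) in APOE2, 41197 in APOE3 and 37016 in APOE4. Neutrophil markers summed to 4.31, 2.21 and 2.36 CPM in the same cells, with Cxcr2, Ly6g and Ltf at 0 in the 3 libraries. Mesothelial markers summed to 19.5, 43.9 and 29.1 CPM, with Msln, Upk1b and Lrrn4 at 0. Macrophage markers summed to 33.7, 18.0 and 21.7 CPM, with 11, 9 and 11 of 12 detected. Erythroid markers, of which 6, 5 and 7 of 7 were detected, summed to 434, 10.3 and 335 CPM. The part of these markers in the levels below was not tested. Intervals given below are 95% intervals that cover counting error only.

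Saa3 was a gene of a small number of APOE2 cells. Fibroblast-like cells of APOE2 held 405 CPM (interval 394 to 416), while those of APOE3 held 0.260 CPM (interval 0.0314 to 0.938) and those of APOE4 0.590 CPM (interval 0.217 to 1.28). These levels rested on 5540 UMIs in APOE2 but on 2 in APOE3 and 6 in APOE4, so that APOE2 exceeded APOE3 by a log2 ratio of 10.61 with a wide interval, 8.75 to 13.65. APOE4 against APOE3 had a log2 ratio of 1.18 and an interval of -1.30 to 4.53, and no difference between those libraries was detectable at this depth. The UMIs of APOE2 came from 38 of 1125 cells, and the 11 cells with most of them, 1% of the class, held 90.2%. The first of these cells held 1289 of its 40596 UMIs as Saa3, together with 18 UMIs of Lcn2, 46 of Prg4, 158 of Serpina3n and 65 of C3. It had all 12 fibroblast markers and no UMI of a macrophage, neutrophil or mesothelial marker. The next 4 cells held 1016, 929, 502 and 479 UMIs of Saa3, and 11 or 12 of the 12 fibroblast markers. Without the first cell the level in APOE2 was 312 CPM.

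Lcn2 was spread more widely over the APOE2 fibroblasts. APOE2 cells held 170 CPM (interval 164 to 178), APOE3 cells 2.21 CPM (interval 1.29 to 3.53) and APOE4 cells 3.05 CPM (interval 2.07 to 4.33), from 2332, 17 and 31 UMIs. APOE2 stood far above the other libraries, with a log2 ratio to APOE3 of 6.27 (5.59 to 7.05), while the interval of APOE4 to APOE3, -0.43 to 1.41 around 0.47, included 0. Lcn2 was found in 228 of 1125 APOE2 cells, 11 of 620 APOE3 cells and 11 of 940 APOE4 cells, and the 1% of APOE2 cells with most of it held 36.7% of its UMIs. The receptor gene for its product, Slc22a17, was at 11.1 CPM in APOE2, 22.8 in APOE3 and 18.9 in APOE4 (log2 ratio of APOE2 to APOE3 -1.04, near 2-fold). Of 16 listed receptors and binding partners of the products 4 were measured, with 0 higher and 1, Slc22a17, lower. Beside them 1.46% of 11951 genes were lower. The list was chosen with earlier results known, so nothing is read from this gene.

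Prg4 was present in a large share of APOE2 fibroblasts and stood highest in APOE2 and lowest in APOE3. APOE2 cells held 1048 CPM (interval 1031 to 1066), APOE3 cells 27.6 CPM (interval 24.1 to 31.6) and APOE4 cells 67.0 CPM (interval 62.0 to 72.2), from 14345, 213 and 681 UMIs. On the log2 scale APOE2 exceeded APOE3 by 5.24 (5.05 to 5.45) and APOE4 exceeded it by 1.28 (1.05 to 1.51). The gene was found in 515 of 1125 APOE2 cells, 68 of 620 APOE3 cells and 185 of 940 APOE4 cells. The 1% of cells with most of it held 32.7% of the APOE2 UMIs, 48.4% of the APOE3 UMIs and 29.96% of the APOE4 UMIs. Markers of cartilage and synovial cells, in which Prg4 is best known, summed to 308 CPM in APOE2, 252 in APOE3 and 225 in APOE4 over the fibroblast-like cells, with Col2a1 at 0 in APOE3 and APOE4, and their part in the Prg4 values was not tested.

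Serpina3n, like Prg4, was higher in both other libraries than in APOE3, and it was spread over more cells. APOE2 cells held 378 CPM (interval 368 to 389), APOE3 cells 44.7 CPM (interval 40.1 to 49.6) and APOE4 cells 165 CPM (interval 157 to 173). The excess over APOE3 on the log2 scale came to 3.08 (2.93 to 3.24) in APOE2 and 1.88 (1.72 to 2.06) in APOE4. In APOE4, 645 of 940 cells had a UMI and the 1% with most of them held 7.16% of all, so that the APOE4 level was a low level in most cells. In APOE2, 667 of 1125 cells had a UMI, and 109 of them, against 7 in APOE4 and 0 in APOE3, were above 1000 CPM.

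C3 was the gene with the least difference. APOE2 cells held 1332 CPM (interval 1313 to 1352), APOE3 cells 761 CPM (interval 741 to 780) and APOE4 cells 555 CPM (interval 540 to 569). APOE2 exceeded APOE3 by 0.81 (0.77 to 0.85) on the log2 scale, under 2-fold, and APOE4 was lower than APOE3 by a log2 ratio of -0.46 (-0.51 to -0.40). It was present in most fibroblast-like cells of each library, in 929 of 1125, 414 of 620 and 577 of 940 cells.

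Hp was, like Saa3, held by few cells. APOE2 cells held 85.9 CPM (interval 81.0 to 90.9), APOE3 cells 14.7 CPM (interval 12.1 to 17.6) and APOE4 cells 6.29 CPM (interval 4.85 to 8.04). Against APOE3 the log2 ratio of APOE2 was 2.55 (2.27 to 2.84) and that of APOE4 was -1.22 (-1.69 to -0.77). Hp was found in 70 of 1125, 24 of 620 and 8 of 940 cells, and 11 APOE2 cells held 73.4% of its UMIs there. In APOE4 a single cell held 48.4% of the 64 UMIs, and the log2 ratio of APOE4 to APOE3 was -1.82 without the cell with most Hp in each library. With each cell capped at the 99th percentile of CPM the ratio of APOE2 to APOE3 dropped to 1.02, near 2-fold.

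**Figure D1:**
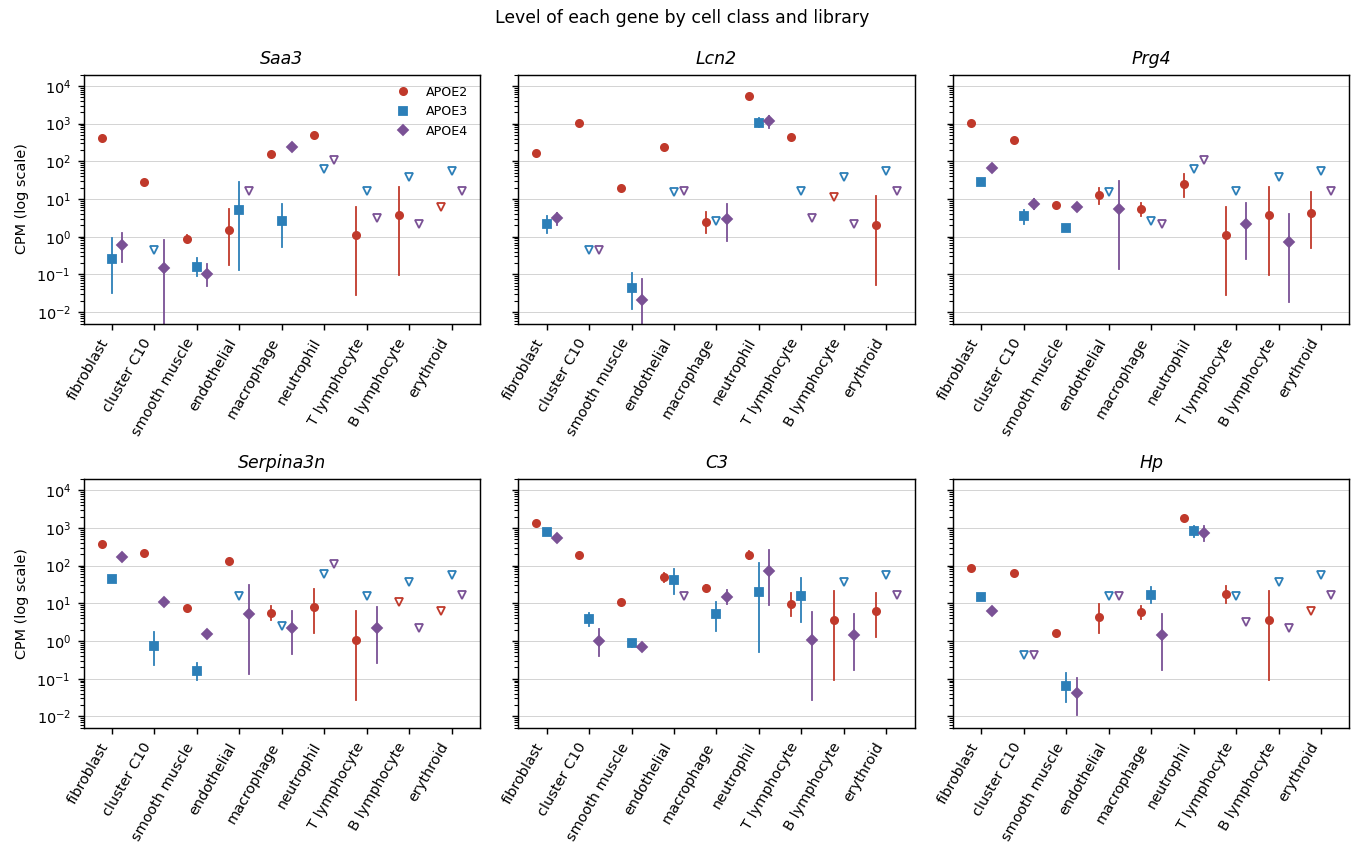
Level of each gene (CPM of the summed UMIs, log scale) by cell class and library, with 95% counting intervals as lines; open triangles mark the level of 3 counts where no UMI was found. In fibroblasts the APOE2 library (red circles) lies above APOE3 for all 6 genes, from 405 against 0.260 CPM for Saa3 to 1332 against 761 CPM for C3.

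Counted against all genes of the class, 5 of the 6 genes were at least 2-fold higher in APOE2 than in APOE3 fibroblasts, where 1.64% of 11951 genes with at least 50 UMIs were higher and 1.46% lower by as much. For APOE4 to APOE3, 4 of the 6 had at least 50 UMIs, of which Prg4 and Serpina3n were at least 2-fold higher and Hp at least 2-fold lower, beside 1.91% of 11698 genes higher and 0.906% lower. These contrasts chose the genes, so nothing is read from the counts, and both rest on the same APOE3 library.

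The share of cells with a UMI depends on depth, so each cell was thinned to 1000 UMIs. Saa3 was then found in 2.13% (1.37 to 3.16) of APOE2 fibroblast-like cells and in 0 of 620 APOE3 and 0 of 940 APOE4 cells, which allows shares of up to 0.484% and 0.319%. Lcn2 was found in 6.49%, 0.161% and 0.213% of APOE2, APOE3 and APOE4 cells, and Prg4 in 23.2%, 2.42% and 5.43%. Serpina3n was found in 21.1%, 4.19% and 15.5%, C3 in 54.8%, 33.7% and 29.0%, and Hp in 2.13%, 1.13% and 0.426%. In smooth muscle-like cells of the same APOE2 library the shares were 0.0525% for Saa3, 0.748% for Lcn2, 0.276% for Prg4, 0.604% for Serpina3n, 0.932% for C3 and 0.0263% for Hp, at a median of 13386 UMIs against 10545 in the fibroblasts. These cells are no clean gauge of free RNA, since a single cluster among them held most of their Lcn2 and Prg4 UMIs. APOE2 T lymphocyte-like cells should lack these transcripts. None of the 120 deep enough had a UMI of Saa3, Prg4, Serpina3n or C3, which allows shares of up to 2.50%. The Saa3 share of APOE2 fibroblasts, 2.13%, lies below that limit, so these cells cannot set it apart from free RNA. Without thinning the class held 1 UMI each of Saa3, Prg4 and Serpina3n and 9 of C3. Lcn2 and Hp are left out here, since 1 cell of the class, with 7 neutrophil markers, held 399 and 15 UMIs of them. The fibroblast shares of APOE2 thus lay above those of the smooth muscle-like cells for each of the 6 genes.

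**Figure D2:**
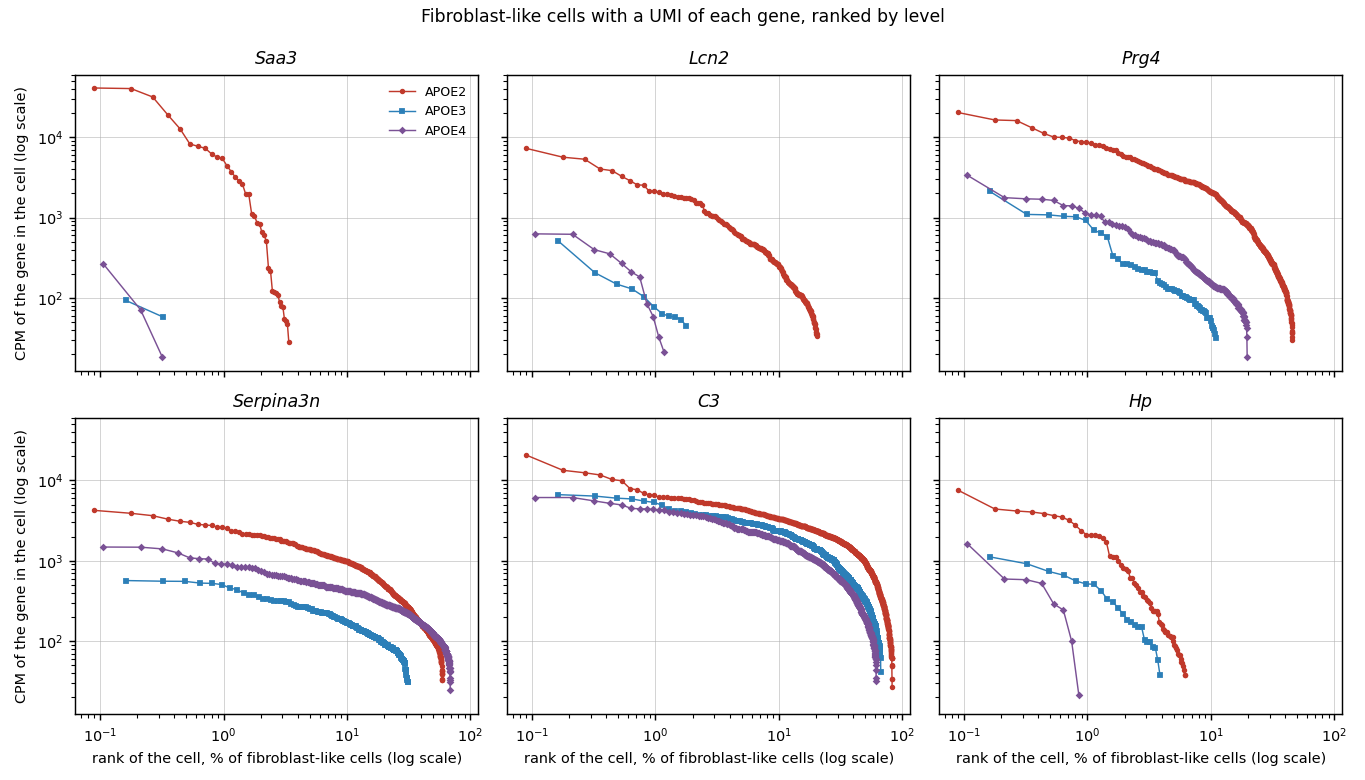
Fibroblast-like cells with a UMI of each gene, ranked by the gene's CPM in the cell (log scale), against rank as a percentage of the fibroblast-like cells of the library (log scale). The Saa3 and Hp curves of APOE2 end at 3.38% and 6.22% of cells, whereas Serpina3n reaches 59.3% of cells in APOE2 and 68.6% in APOE4.

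The 2 fibroblast clusters held the genes unequally. The Pi16 cluster made up 505 of the 1125 APOE2 cells (44.9%), 178 of the 620 APOE3 cells (28.7%) and 191 of the 940 APOE4 cells (20.3%). Its name gives its leading genes over the 3 libraries together. The 8 markers of Pi16-type fibroblasts summed there to 2524 CPM in APOE2, 6117 in APOE3 and 5630 in APOE4, and to 1078, 1261 and 1328 CPM in the Inmt cluster. With the acute phase genes allowed in the clustering, the cluster led by Pi16 held 55, 45 and 56 cells, so these shares depend on the clustering. In APOE2 it held 97.4% of the fibroblast UMIs of Saa3, 92.3% of Hp, 88.6% of Lcn2, 80.5% of Serpina3n, 74.5% of Prg4 and 70.8% of C3. All 6 genes were thus higher in the Pi16 cluster of APOE2, with log2 ratios to the Inmt cluster of 5.17 (4.93 to 5.42) for Saa3, 3.53 for Hp, 2.92 for Lcn2, 2.00 for Serpina3n, 1.50 for Prg4 and 1.24 for C3. The order was not kept for Prg4 in the other libraries. Prg4 stood at 12.7 CPM in the Pi16 cluster and 35.3 CPM in the Inmt cluster of APOE3 (log2 ratio -1.48, -2.06 to -0.94), and at 59.3 and 69.3 CPM in APOE4 (-0.23, -0.50 to 0.04). For C3 the Pi16 cluster was higher in each library, at 1859 against 789 CPM in APOE2, 1451 against 408 in APOE3 and 1234 against 345 in APOE4.

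Within each cluster the APOE2 library was still above APOE3. In the Inmt cluster Prg4 was at 543 CPM in APOE2 and 35.3 in APOE3 (log2 ratio 3.94, 3.73 to 4.17), and Lcn2 at 39.3 and 2.16 CPM (4.19, 3.33 to 5.21). In the Pi16 cluster Prg4 was at 1538 and 12.7 CPM (6.92, 6.43 to 7.46) and Lcn2 at 298 and 2.30 CPM (7.01, 5.89 to 8.46). C3 differed by less in the Pi16 cluster, at 1859 CPM in APOE2 and 1451 CPM in APOE3 (0.36, 0.31 to 0.41), than in the Inmt cluster, at 789 and 408 CPM (0.95, 0.88 to 1.03).

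The genes shared cells in APOE2. At least 10 UMIs of Saa3 were found in 25 fibroblast-like cells, and 15 of these (60.0%) also had at least 10 of Lcn2, 17 (68.0%) of Prg4, 18 (72.0%) of Serpina3n and 21 (84.0%) of C3. Read from the other gene, the 15 cells were 25.4% of the 59 cells with at least 10 UMIs of Lcn2, and the 17 cells 7.87% of the 216 with as many of Prg4. For Hp this held for 2 of the 25 Saa3 cells (8.0%), which were 9.52% of its 21 cells. Over all 1125 cells at least 10 UMIs of Lcn2 were found in 59, of Prg4 in 216 and of Serpina3n in 161. The same held for C3 in 543 cells and for Hp in 21. The shares above are to be read beside these numbers, since C3 was common over all cells and Hp rare. Of the 25 Saa3 cells, 22 were in the Pi16 cluster. They were deeper than the other fibroblasts, with a median of 22988 against 10444 UMIs, which raises every count of shared cells. Their neutrophil markers summed to 5.17 CPM against 4.27 in the other 1100 cells, their macrophage markers to 24.1 against 34.1, their mesothelial markers to 6.89 against 20.1 and their cartilage and synovial markers to 629 against 294. Their Pi16-type markers summed to 1333 CPM against 1833. A single cell of the 25 was among the 5% of cells with the highest doublet scores, against 52 of the 1100.

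With each cell thinned to 1000 UMIs, 332 of 1125 APOE2 fibroblast-like cells (29.5%) had a UMI of 2 or more of the 6 genes, against 17 of 620 (2.74%) in APOE3 and 59 of 940 (6.28%) in APOE4. These shares rise with the level of each gene. The genes were picked on those levels, so the shares do not gauge sharing of cells beyond them. Across the 1125 APOE2 cells Pearson's r between the log-transformed levels was 0.54 for Prg4 and Serpina3n, 0.46 for Lcn2 and Serpina3n, 0.43 for Lcn2 and Prg4, and 0.39 for Saa3 and Lcn2. It was 0.08 in APOE3 and -0.07 in APOE4 for Prg4 and Serpina3n, where Prg4 was sparse. Other pairs differed in this. Serpina3n with C3 stayed positive throughout, at 0.41 (APOE2), 0.23 (APOE3) and 0.33 (APOE4), and C3 with Hp gave 0.18 (APOE2) and 0.20 (APOE3). Prg4 with C3 gave 0.19 (APOE2), 0.003 (APOE3) and -0.18 (APOE4). From APOE2 to APOE3, Prg4 with Hp went from 0.11 to -0.04 and Serpina3n with Hp from 0.17 to -0.08. Cells of 1 library share their depth and source, so these values are a description.

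**Figure D3:**
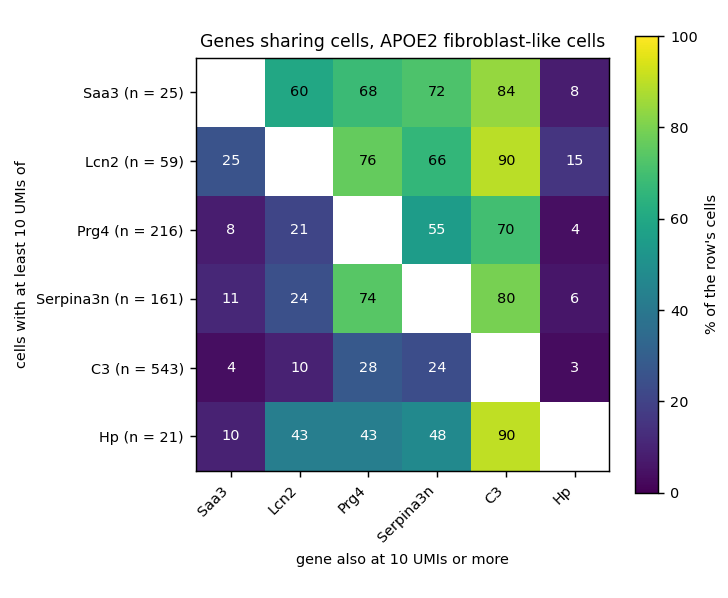
Percentage of the APOE2 fibroblast-like cells with at least 10 UMIs of the row gene (n beside its name) that also had at least 10 UMIs of the column gene. Of the 25 Saa3 cells, 60.0% were also Lcn2 cells, 84.0% also C3 cells and 8.0% also Hp cells. Over all 1125 cells there were 59 Lcn2, 543 C3 and 21 Hp cells.

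The likeness of other genes to these was low. Among 10078 genes found in at least 5% of fibroblast-like cells of each library, those most like each of Saa3, Lcn2 and Prg4 were ranked by the median of Pearson's r over the 3 libraries. For Prg4 these included Cytl1 (0.29), Serpine2 (0.27), Fxyd5 (0.23) and Nr4a1 (0.19), over 1125, 620 and 940 cells. For Cytl1 the likeness was absent in APOE2, with r of 0.00 there against 0.31 in APOE3 and 0.29 in APOE4. The genes most like Lcn2 were Epha7 (0.17), C4b (0.16), Abi1 (0.16), Gch1 (0.15) and Tmem176b (0.15), and those most like Saa3, led by Bmper, Eya2 and Has2os, did not exceed 0.14. Saa3 was found in 2 APOE3 and 3 APOE4 cells, so its values there carry little information.

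Outside the fibroblasts, where the choice of genes used no value, the largest amount of Lcn2 lay in 1 cluster of cells (C10 in the plots). This cluster was led by Spp1, Vcam1, Timp1 and Lcn2 itself. It kept 10 of 10 smooth muscle markers but had 3 cartilage and synovial markers raised, Acan, Comp and Sox9, and was left unnamed. It held 524 APOE2, 250 APOE3 and 308 APOE4 cells. Lcn2 stood there at 1007 CPM (989 to 1025) in APOE2, from 12312 UMIs in 213 cells, and was not found in APOE3 or APOE4. Against the 3 counts that a count of 0 allows, APOE2 was at least 2313-fold higher than APOE3. The Lcn2 UMIs of this cluster were 51.3% of all those in the APOE2 library, and the 1% of its cells with most of them held 17.5%, so that no small group of cells carried the level.

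The other genes were also higher in the APOE2 cells of that cluster. Serpina3n stood at 215 CPM in APOE2, 0.725 in APOE3 and 10.8 in APOE4, and Prg4 at 370, 3.48 and 7.46 CPM. C3 was at 196, 3.77 and 1.02 CPM in the same order, and Hp and Saa3 were at 62.7 and 28.9 CPM in APOE2 with no UMI in APOE3. A single cell held 24.9% of the Prg4 UMIs of APOE2, and Prg4 was at 244 CPM without the 19 droplets above 5 times the library's median UMIs, where Lcn2 was at 949 CPM. The 12 fibroblast markers summed to 7660 CPM in the APOE2 cells of this cluster against 2909 in APOE3 and 2723 in APOE4. In the same order, the 10 smooth muscle markers summed to 26020, 39527 and 42199 CPM and the neutrophil markers to 56.3, 1.02 and 1.46 CPM. The cartilage and synovial markers summed to 213, 644 and 123 CPM. All these markers can bear on the levels. Their part in these levels was not tested. Lcn2 in the cluster was 591% of its level in APOE2 fibroblasts, while Dcn, a fibroblast proteoglycan, was at 23.3% of its own. Dcn gauges RNA of fibroblasts only.

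**Figure D4:**
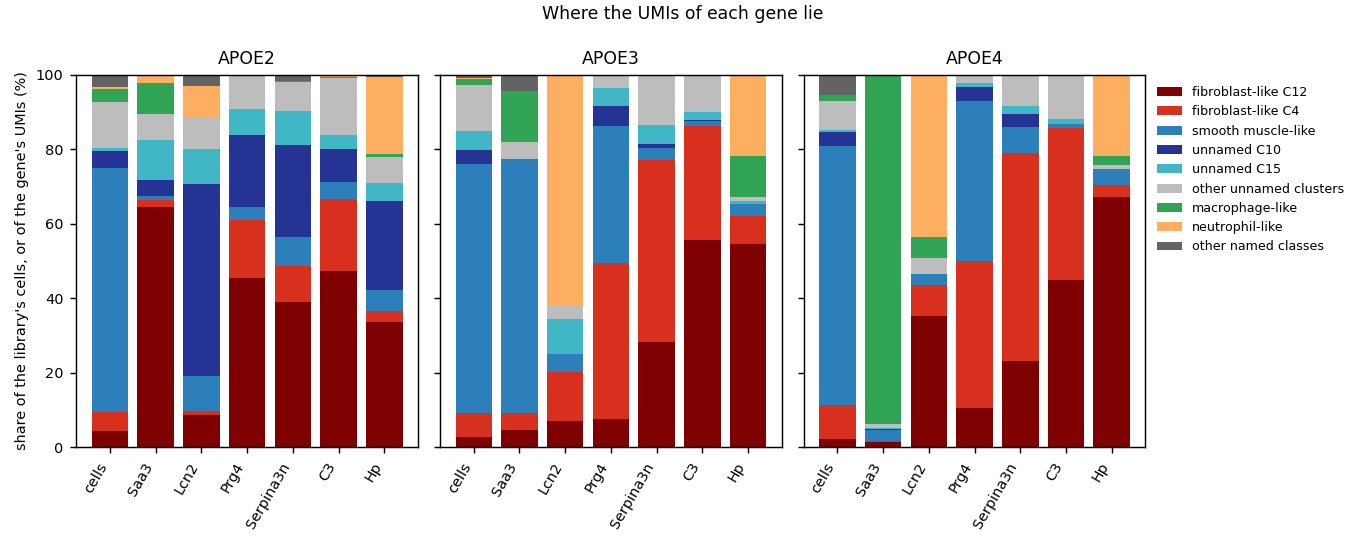
Share of the cells of each library (first bar) and of the UMIs of each gene (other bars) by cell source, in percent. In APOE2 the Pi16 cluster (fibroblast-like C12), 4.29% of cells, held 64.6% of the Saa3 UMIs and the unnamed cluster C10, 4.45% of cells, held 51.3% of the Lcn2 UMIs; the APOE3 and APOE4 bars of Saa3 rest on 22 and 350 UMIs.

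In smooth muscle-like cells all 6 genes were at least 2-fold higher in APOE2 than in APOE3, beside 3.0% of 14958 genes higher and 0.789% lower. Saa3, Lcn2, Serpina3n and Hp reached 50 UMIs through APOE2, with 15, 4, 15 and 6 UMIs in APOE3, so nothing is read from the count. The levels were low. Lcn2 stood at 20.1 CPM in APOE2 and 0.0434 CPM in APOE3 (log2 ratio 8.86, 7.50 to 10.73), Serpina3n at 7.32 and 0.163 CPM (5.49, 4.76 to 6.34) and C3 at 10.7 and 0.878 CPM (3.61, 3.28 to 3.95). Most of the APOE2 Lcn2, 1563 of 2277 UMIs, lay in 1 cluster of 305 cells led by Adamtsl1, Mdga2 and Prss12. For APOE4 to APOE3, 3 of the 6 genes had at least 50 UMIs, and Serpina3n (1.53 against 0.163 CPM, log2 ratio 3.23, 2.46 to 4.10) and Prg4 (5.97 against 1.72 CPM, 1.79, 1.54 to 2.05) were at least 2-fold higher, beside 3.37% of 14762 genes higher and 0.684% lower. Serpina3n reached 50 UMIs through APOE4, with 149 UMIs there against 15 in APOE3. In APOE4, 4 cells held at least 50% of the Prg4 UMIs. The Prg4 ratio was turned to -1.72 when cells were classed one by one from markers.

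Relative to the fibroblasts of the same library, the smooth muscle-like cells of APOE2 held 0.220% of the Saa3 level, 0.665% for Prg4, 0.803% for C3, 1.89% for Hp and 1.93% for Serpina3n, and 11.8% for Lcn2. The fibroblast genes Dcn, Serpinf1 and Clec3b, which served as a gauge of free RNA, were at 0.885%, 0.821% and 0.219% of their fibroblast levels there, against 0.287%, 0.385% and 0.0774% in APOE3. By the class mean, Saa3, Prg4 and C3 in smooth muscle-like cells of APOE2 lay within the range of those 3 genes, and Hp, Serpina3n and Lcn2 lay above it. Those 3 genes gauge free RNA of fibroblasts only. The unnamed cluster C10 held 51.3% of the Lcn2, 24.7% of the Serpina3n and 23.9% of the Hp UMIs of APOE2. Neutrophil-like cells held 8.27% of the Lcn2 and 20.7% of the Hp UMIs, and free RNA of these sources was not gauged. The mean hides an uneven spread, since the cluster of 305 cells held 673 of the 791 Prg4 UMIs and 572 of the 1213 C3 UMIs of the class, but 25 of the 101 Saa3 UMIs. The same cluster held 157 of 159 Prg4 UMIs in APOE3 and 578 of 583 in APOE4. How much free RNA adds to these levels was not tested. Prg4 was at 6.24% of its fibroblast level in APOE3 and at 8.91% in APOE4, where Dcn was at 0.376%.

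In macrophage-like cells, of which there were 416 in APOE2, 116 in APOE3 and 130 in APOE4, Saa3 was again held by few cells. APOE2 cells held 157 CPM (interval 146 to 169), APOE3 cells 2.56 CPM (interval 0.528 to 7.48), from 3 UMIs of 1 cell, and APOE4 cells 237 CPM (interval 212 to 264). APOE2 exceeded APOE3 by 5.94 (4.39 to 8.22) on the log2 scale. The APOE4 level came from a single cell, which held all 328 UMIs, all 12 macrophage markers and 5 UMIs of fibroblast markers, with 4 UMIs of Lcn2, 6 of C3 and 18 of 3 neutrophil markers. Without it APOE4 had no Saa3 UMI in 129 cells, where 3 counts are 2.22 CPM, and fell from above APOE2 to below it. In APOE2, 27 of 416 cells had a UMI and the first held 217 of 702. The 5 cells with most Saa3 had 10 to 12 of the 12 macrophage markers, 0 to 3 UMIs of fibroblast markers, no UMI of Prg4 or Serpina3n and at most 1 of Lcn2 or C3.

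Of the 6 genes, Saa3 and C3 had at least 50 UMIs for APOE2 to APOE3 in macrophage-like cells. Both were at least 2-fold higher in APOE2, beside 3.22% of 8901 genes higher and 2.65% lower. Both reached 50 UMIs through APOE2, with 3 and 6 UMIs in APOE3, so nothing is read from the count. C3 stood at 25.3 CPM in APOE2 and 5.12 CPM in APOE3 (log2 ratio 2.31, 1.14 to 3.78), with 56 of its 113 UMIs in 1 cell. Without the 5% of cells with the highest doublet scores its log2 ratio was 0.88, under 2-fold. For APOE4 to APOE3 Saa3 alone had as many UMIs and was higher through the single cell above, beside 2.79% of 6448 genes higher and 1.72% lower. Hp was below APOE3 in APOE2 macrophage-like cells, at 5.83 against 17.1 CPM, from 26 and 20 UMIs, and 12 of the 20 lay in 1 cell. This direction was turned at a coarser clustering (resolution 0.4), where the log2 ratio was 1.71.

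Neutrophil-like cells had the highest levels of Lcn2 and Hp of the named classes in each library. They numbered 75 in APOE2, 10 in APOE3 and 7 in APOE4. Lcn2 stood at 5371 CPM (5137 to 5612), 1066 CPM (796 to 1398) and 1139 CPM (774 to 1617), and Hp at 1802 CPM (1668 to 1944), 820 CPM (586 to 1117) and 735 CPM (449 to 1135). A single cell held 37 of the 52 Lcn2 UMIs of APOE3 and another 24 of the 31 of APOE4, so these values are given side by side only. Saa3 was found in 7 of the 75 APOE2 cells, of which 1 held 90 of the 185 UMIs, and the level of 501 CPM became 260 CPM without it.

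Endothelial-like cells of APOE2, 155 in all, had 247 CPM (221 to 275) of Lcn2 and 131 CPM (112 to 152) of Serpina3n. The 31 APOE3 cells had no UMI of either and the 36 APOE4 cells 1 of Serpina3n, where the 3 counts that a count of 0 allows are 15.5 and 16.1 CPM. Of the Lcn2 UMIs, 51.8% lay in 2 of the APOE2 cells. Dcn in these cells was at 9.55% of its fibroblast level, while Lcn2 was at 145% and Serpina3n at 34.6%. Dcn gauges RNA of fibroblasts only, and RNA of other sources of Lcn2 and Serpina3n was not gauged. In T lymphocyte-like cells of APOE2 all 399 UMIs of Lcn2 lay in 1 cell with 7 neutrophil markers. B lymphocyte-like and erythroid-like cells had at most 3 UMIs of any of the 6 genes in a library.

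The acute phase list held 38 genes, the 6 included. Without the 6, which were picked on this contrast, 11 of the other 32 genes had at least 50 UMIs in APOE2 and APOE3 fibroblasts together. Of the 11, 7 were at least 2-fold higher in APOE2 and 0 lower, beside 1.64% of 11951 genes higher and 1.46% lower. Their median log2 ratio was 1.56 against -0.01 for all genes of the class. The 50 UMIs can be reached through APOE2 alone, and the list was chosen with earlier results known, so nothing is read from the count. With the 6 the count was 12 of 17 and the median 2.14. The 7 included Saa1 (5.63 against 0.130 CPM, from 77 UMIs and 1 UMI), Serpina3m, a relative of Serpina3n (9.14 against 0.260 CPM), Ptx3, a long pentraxin (20.1 against 4.41 CPM), C4b, a complement protein (335 against 75.9 CPM), and Mt2, a metallothionein (599 against 159 CPM). The 5 of the 17 that were within 2-fold, C3 among them, had log2 ratios of 0.24 to 0.83. For APOE4 to APOE3, 13 of the list had at least 50 UMIs, of which only Prg4 and Serpina3n were higher and Hp lower, with a median of 0.36 against -0.10 for all genes. Without the 6, 0 of 9 were 2-fold apart in either direction, beside 1.91% of 11698 genes higher and 0.906% lower. Fga, Fgb, Fgg and Apcs, plasma proteins of liver, had no UMI in fibroblasts of any library.

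**Figure D5:**
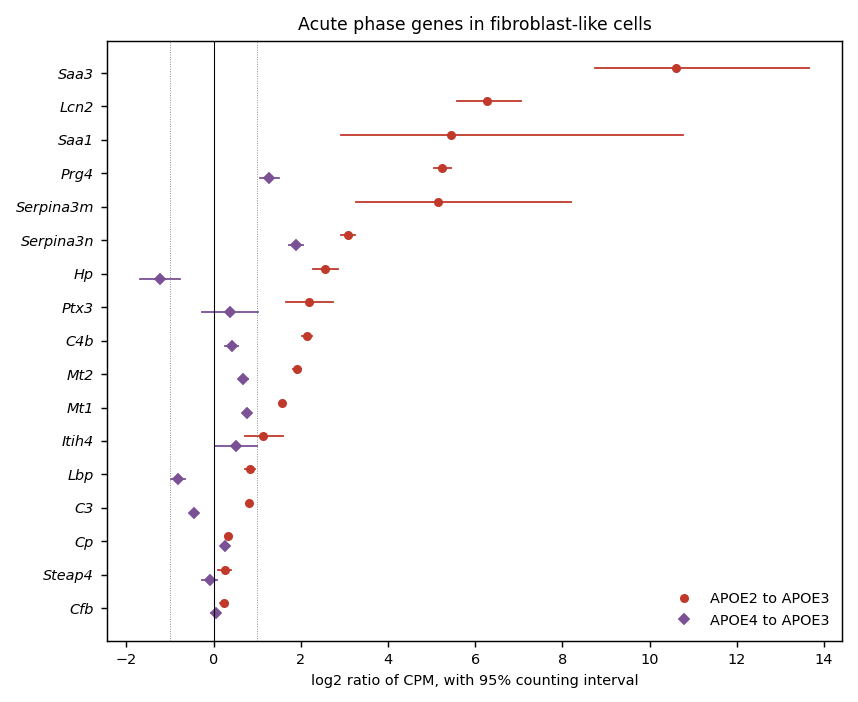
Log2 ratio of CPM to APOE3 in fibroblast-like cells for the acute phase genes with at least 50 UMIs, with 95% counting intervals; dotted lines mark 2-fold. The 17 APOE2 ratios (red circles) all lie above 0, from 0.24 to 10.61, and the APOE4 ratios (purple diamonds) lie between -1.22 and 1.88.

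Genes that act upstream of the acute phase were counted in the same way in APOE2 fibroblasts. None of 17 measured genes for inducing cytokines and their receptors was 2-fold apart from APOE3 in either direction (median log2 ratio 0.15). Nor was any of 18 genes for signalling and transcription factors (0.11). Over all genes of the class 1.64% of 11951 were higher and 1.46% lower. Counts of 0 are near that share, so nothing is read from them. The cytokines Il1a, Tnf, Osm, Ifng and Il17a had 0 to 4 UMIs in APOE2 and APOE3 fibroblasts. Il6 stood at 11.8 CPM in APOE2, 10.3 in APOE3 and 32.1 in APOE4, and so was higher in APOE4 alone (log2 ratio 1.64). Of 16 measured inducer and receptor genes, 1 was at least 2-fold higher in APOE4. Among the signalling genes 4 of 18 were at least 2-fold higher in APOE4 than in APOE3, beside 1.91% of 11698 genes. They were Nfkbiz (267 against 110 CPM), Socs3 (139 against 58.3 CPM), Nfkb1 (442 against 212 CPM) and Nfkbia (1162 against 562 CPM). All are genes of the NF-kB and STAT3 pathways. Immediate early genes, which dissociation of tissue can raise, summed to 10844 CPM in APOE2, 12378 in APOE3 and 21593 in APOE4 fibroblasts. Of these genes 6 of 18 were at least 2-fold higher in APOE4, beside the same 1.91% of all genes. Among them were Fosb (990 against 289 CPM) and Fos (3199 against 1316 CPM). The part of the immediate early genes in the APOE4 values of Prg4, Serpina3n, Il6, the signalling genes and the chemokines below was not tested. These lists too were chosen with earlier results known, so nothing is read from their counts.

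Genes known from inflamed fibroblasts, for chemokines, cytokines, matrix, adhesion and surface proteins and Ptgs2, were counted in the same way. Ly6a and Ly6c1 of this list were leading genes of the Pi16 cluster, whose share of the fibroblasts was highest in APOE2. The part of that share in the counts was not tested. Of 22 measured, 11 were at least 2-fold higher in APOE2 than in APOE3, beside 1.64% of 11951 genes. The median log2 ratio of the 22 was 0.91 against -0.01 for all genes. The 11 were led by Ccl7 (126 against 10.8 CPM), Timp1 (922 against 143 CPM), Thbs1 (31.1 against 5.58 CPM) and Cxcl5 (13.3 against 2.60 CPM). Cxcl13 had 461 UMIs in APOE2 and none in APOE3. In APOE4, 8 of 20 were higher, beside 1.91% of 11698 genes, with a median of 0.40 against -0.10 for all genes. The 8 were led by Ccl7 (58.8 CPM), Ptgs2 (50.4 against 13.8 CPM), Il6 and Cxcl1 (482 against 175 CPM), while Timp1, at 147 CPM, was near APOE3. Of 11 complement genes around C3, C4b alone was 2-fold higher in APOE2, beside the same 1.64% of all genes. Both lists were chosen with earlier results known, and 50 UMIs can be reached through 1 library alone. Nothing is therefore read from these counts. Cfb, which acts with C3, stood at 216, 183 and 189 CPM.

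The genes were also found in APOE2 cells of other clusters left unnamed. The first (C15), led by Emcn, Camp and Ngp with Lcn2 and Saa3 among its 10 leading genes, held 115 APOE2, 357 APOE3 and 46 APOE4 cells, and 62 of its APOE2 droplets were above 5 times the library's median UMIs. Lcn2 stood there at 263, 0.943 and 0 CPM and Saa3 at 104, 0 and 0.824 CPM, and without the 62 droplets the APOE2 levels were 272 and 210 CPM. The second (C16), led by hemoglobin genes, had Lcn2 at 277 CPM in its 210 APOE2 cells and at 0.284 CPM in its 212 APOE3 cells. Both held genes of several cell types, and from which cells these UMIs came cannot be told apart. Another unnamed cluster (C11), led by Igfbp6, C3 and Igfbp5, had 10 of 12 fibroblast markers raised but kept 9 of 10 smooth muscle markers. Its median was 3203 UMIs per cell. Its 490 APOE2 cells held 11.5% of the C3, 6.18% of the Prg4 and 4.75% of the Serpina3n UMIs of that library, outside the fibroblast-like class.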

How the data were processed

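Single-cell RNA-seq of pooled aortas gave 1 droplet library for each of APOE2, APOE3 and APOE4. The UMI counts are those the authors deposited, raw and per gene and cell barcode, made with Cell Ranger 7.0.1 on mm10 per the labels and file headers. The genes and lists were chosen with earlier results of these data known. Cells with at least 200 genes and under 20% mitochondrial UMIs were kept. They were integrated and clustered after the study's methods (Seurat 5.3.0, sctransform 0.4.2, R 4.3.3; 3000 features, 30 components, Louvain resolution 0.8), with the 38 acute phase genes kept out of the features, and each of 23 clusters was named from marker lists or left unnamed (6 clusters). Doublets were scored with Scrublet (scanpy 1.11.5) and kept, and an alternative left out the 5% of cells with the highest scores.

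UMIs were summed per class and library and scaled to CPM (numpy 2.4.6, scipy 1.17.1, pandas 2.3.3, Python 3.11.15). Intervals are 95% exact Poisson for a level, conditional binomial for a ratio and Clopper-Pearson for a share. They cover counting error only and not the spread between mice. With 1 library per genotype no test was made. A gene counted as measured with at least 50 UMIs in both libraries together and as higher or lower past 2-fold, and 0.5 counts were added to each library for list medians and fold calls. Named genes were the 6 members, at most 10 genes per list past 2-fold in fibroblasts by size, and the 5 genes most alike in Pearson's r, of which 1 is not reported here. Cfb, cytokines at or near 0 and liver genes at 0 were named after their values were seen. The ratios and their intervals were tested on simulated Poisson sums per class, which lack the uneven spread of UMIs over cells. Clustering, naming of clusters, thinning and counts of shared cells were not simulated.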

Additional observations from a re-analysis of the deposited data

How the results depend on the processing

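In fibroblast-like cells the log2 ratio of APOE2 to APOE3 stayed above 0 for Saa3, Lcn2 and Prg4 under each alternative that gave a value. The genes were picked on this contrast in these same libraries, so nothing is read from its sign. Over all alternatives, 173 headline values were counted as unmoved (a count within 1.5 times, another value within its counting interval) and 47 as moved. Headline values were the fibroblast ratios and shares of cells of Saa3, Lcn2 and Prg4, and the counts of genes higher in each class. Of the other values, each of a single gene, 317 were counted as unmoved, 79 as moved and 3 as reversed. With each cell's CPM capped at the 99th percentile the ratio was 4.65 for Saa3, 5.13 for Lcn2 and 4.40 for Prg4. For Lcn2 it was 7.73 with each cell classed by its own markers. For Prg4 it was 4.64 at Louvain resolution 1.6, 4.51 with libraries merged without integration and 4.61 as the mean of the cells' own CPM. An alternative chosen after seeing the data, without the 1% of cells with most UMIs of the gene, gave 7.39 for Lcn2 and 5.65 for Prg4 and no value for Saa3, which had no APOE3 UMI left. For APOE4 to APOE3 it gave -1.72 for Lcn2 and 1.72 for Prg4, and classing by own markers gave 1.69 for Prg4. In smooth muscle-like cells the Prg4 ratio of APOE4 to APOE3 was reversed with merged libraries (-0.00022) and with own markers (-1.72), and in macrophage-like cells the Hp ratio of APOE2 to APOE3 was reversed at resolution 0.4 (1.71). The cause was not tested.

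Counts of genes higher depend on the minimum of UMIs and the fold by construction. With at least 10 UMIs, 635 genes were higher in APOE2 and 819 in APOE4 fibroblast-like cells (196 and 223 as reported), 1163 and 1190 in smooth muscle-like cells (449 and 498), and 844 and 690 in macrophage-like cells (287 and 180). At 4-fold these were 71 and 39, 100 and 58, and 89 and 31. With own markers 299 genes were higher in APOE2 fibroblast-like cells. Of the 6 genes, 0 were higher in APOE4 fibroblast-like cells at 4-fold. In APOE4 smooth muscle-like cells 1 was higher, in place of 2, at resolution 1.6, with merged libraries, with the genes allowed in the clustering, with own markers and at 4-fold. In APOE2 macrophage-like cells 1 was higher without the highest Scrublet scores, 4 at resolution 0.4 and 5 with at least 10 UMIs, and in APOE4 macrophage-like cells 2 at resolution 0.4, with merged libraries and with at least 10 UMIs. Without thinning, 3.38% of APOE2 fibroblast-like cells had a UMI of Saa3. Lcn2 was found in 20.3%, 1.77% and 1.17% and Prg4 in 45.8%, 10.97% and 19.7% of APOE2, APOE3 and APOE4 cells. At 3000 UMIs Lcn2 was found in 11.5% of APOE2 cells and Prg4 in 35.4% of APOE2 and 10.4% of APOE4 cells. No paired analysis was possible because each genotype has 1 library.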
